A study of Mus musculus with 7 samples.

Results

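The cytosolic ribosomal protein genes were examined in tibialis anterior (TA) muscle, which lies along the shin and is made up mostly of fast fibres. Members were the genes whose symbol follows the Rpl or Rps naming of cytosolic ribosomal proteins, together with *Rplp0*, *Rplp1*, *Rplp2* and *Rpsa*, without the Rps6k kinases. The rule found 77 of the 12239 genes analysed, 45 of the large and 32 of the small ribosomal subunit. Libraries came from 4 wild-type (WT) FVBN mice and 3 mice without fast myosin-binding protein C (C2-/-). All 7 animals were males, as the study describes them. The sample titles give an age of 5 to 6 months, whereas the study's methods begin the age range lower. In the C2-/- allele a Neo cassette between LoxP sites replaces exons 2 to 22 of *Mybpc2*, so every cell carries the change and no Cre was used here. The design text counts 4 animals in each group, whereas the study's legend for this experiment gives 4 WT and 3 C2-/- mice, the numbers analysed here.

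A cytosolic ribosome carries ribosomal RNA and a nearly fixed set of proteins. The large subunit forms peptide bonds and holds the exit tunnel of the new chain, while the small subunit reads the messenger RNA. Skeletal muscle depends on ribosome number for its capacity to make contractile protein, and it expresses a muscle-specific paralog, *Rpl3l*, of the general *Rpl3*. Many ribosomal protein mRNAs begin with a C followed by a run of pyrimidines, the TOP motif, through which mTOR signalling controls their translation.

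Levels are given as log2 CPM, the reads of a gene relative to all reads of its library after TMM scaling, and changes are C2-/- minus WT on that log2 scale. A gene was past the threshold with a limma adjusted p under 0.05 over all genes and a change over 1.5-fold. Reads in the analysed genes numbered 14929214 to 15464499 for WT replicates 1 to 3, 4683853 for WT replicate 4 and between 2613277 and 4917936 for the C2-/- libraries. WT replicate 4 was therefore the only WT library at the depth of the C2-/- libraries, and differences from WT replicate 4 below are the C2-/- mean minus this library, without a test. Each library was compared with the mean of WT replicates 1 to 3, or with that of the others for a library among these. The GC content of transcripts accounted for 0.774% to 3.31% of the variance of this difference in WT replicates 1 to 3. It accounted for 9.67% in WT replicate 4 and between 33.9% and 38.2% in the C2-/- libraries. Values after a correction for GC content are therefore given beside the uncorrected ones. *Mybpc2* itself, at 12.41 to 12.85 in WT and at -0.47 to 1.67 in C2-/- (3 to 8 reads), carried the level of its label in every library (log2 change -11.82, SE 0.41, limma adjusted p = 4.85e-07).

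The muscle identity of the samples was checked by marker genes, and some of these moved with genotype (20.2% of all genes were higher and 25.0% lower). The 8 fibre markers, such as *Ckm* and *Acta1*, summed to 150949 to 183733 CPM in WT and to 78246 to 103047 CPM in C2-/-, and 4 of the 8 were lower. The 5 fibroblast markers summed to 356 to 545 CPM in WT and 1275 to 1439 CPM in C2-/-, with 4 of 5 higher, and the 6 macrophage markers to 20.9 to 37.8 CPM and 50.5 to 72.9 CPM, with 2 of 6 higher. Of 5 adipocyte markers 3 were measured, at 157 to 360 CPM in WT and 466 to 632 CPM in C2-/-, with 1 higher. The 6 endothelial markers (323 to 450 CPM in WT, 285 to 373 CPM in C2-/-) had 1 higher and 1 lower, and the 4 Schwann cell markers (32.8 to 73.4 CPM and 32.5 to 57.3 CPM) had 1 lower. The single red blood cell marker measured, *Alas2*, was lower, at 4.10 to 5.15 CPM in WT and 1.03 to 2.06 CPM in C2-/-. With the GC correction 2 fibre markers were lower (median log2 change -0.04, against -0.78 without it), 2 fibroblast markers (median 0.52, against 1.42), 1 macrophage marker and 1 adipocyte marker were higher, and 0 endothelial, Schwann cell and red blood cell markers were past the threshold. None of the measured markers had 0 reads in any library. The part of these cell types in the changes of ribosomal protein genes was not tested, and in whole muscle fewer cells of a type and less RNA per cell cannot be told apart.

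Start regions are shown for the called members with a TOP motif and for some members with large changes, because the motif is the best known sequence feature of this family. RefSeq promoters on GRCm38.p6 were matched for 58 of the 77 members. Each stretch has 30 bases before and 20 after the annotated start on the strand of the gene, 5′ to 3′. Capitals mark the pyrimidine run that covers a TOP start or, where there is none, the longest run in the stretch that begins with C. The first 6 genes fell and the last 5 rose in C2-/-, except that *Rps18* was not past the threshold.
Rps18 (chr17:33955646-33955695, minus strand): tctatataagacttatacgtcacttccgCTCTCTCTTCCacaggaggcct
Rpl18 (chr7:45718041-45718090, plus strand): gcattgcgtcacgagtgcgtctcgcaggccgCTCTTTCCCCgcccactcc
Rplp0 (chr5:115559437-115559486, plus strand): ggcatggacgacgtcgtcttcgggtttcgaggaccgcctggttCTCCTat
Rpl35a (chr16:33056452-33056501, plus strand): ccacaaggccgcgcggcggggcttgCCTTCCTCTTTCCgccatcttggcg
Rpl28 (chr7:4792935-4792984, plus strand): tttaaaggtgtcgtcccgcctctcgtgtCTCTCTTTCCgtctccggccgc
Rplp2 (chr7:141447621-141447670, plus strand): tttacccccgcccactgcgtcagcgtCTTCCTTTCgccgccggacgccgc
Rpl38 (chr11:114668550-114668599, plus strand): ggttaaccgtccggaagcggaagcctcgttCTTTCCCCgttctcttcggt
Rps24 (chr14:24490648-24490697, plus strand): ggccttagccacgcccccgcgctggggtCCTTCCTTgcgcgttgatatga
Rpl22l1 (chr3:28805478-28805527, plus strand): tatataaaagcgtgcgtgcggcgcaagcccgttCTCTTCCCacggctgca
Rps27l (chr9:66946056-66946105, plus strand): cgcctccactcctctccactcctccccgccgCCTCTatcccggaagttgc
Rpl39 (chrX:37085203-37085252, minus strand): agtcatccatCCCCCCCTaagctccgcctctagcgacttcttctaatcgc

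A TOP motif, read as C and then 4 pyrimidines at the annotated start or 1 base to either side of it, was present in 17 of the 58 members (29.3%) and in 2030 of 27025 genes with a promoter (7.51%). A pyrimidine run of at least 8 bases beginning with C lay within the stretch in 29 of 58 members (50%) and in 18.2% of all genes. The motif was found among members of every kind of response, in 3 of 13 that rose, 4 of 18 that fell and 10 of 27 that were not past the threshold. The sequences above show the same, with TOP starts in *Rpl18*, *Rpl35a*, *Rpl28* and *Rplp2*, which fell, and in *Rpl38*, *Rps24* and *Rps27l*, which rose. A match is a description of these letters, and the absence of one says only that they are not in this window.

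Whether the members changed together was examined first through the share of reads in the ribosomal protein genes. They held 1.04%, 0.966%, 0.982% and 1.01% of the reads in WT replicates 1 to 4 and 1.05%, 0.990% and 1.18% in C2-/- replicates 1 to 3. The exact (Clopper-Pearson) 95% intervals were narrow, from 0.961% to 0.971% in WT replicate 2 and from 0.978% to 1.0% in C2-/- replicate 2, and cover counting error only. The group means were 1.0% ± 0.034 (SD, n = 4) and 1.07% ± 0.096 (SD, n = 3), and the groups overlapped. The difference of 0.0735 percentage points became 0.0209 without C2-/- replicate 3.

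The mean of the centred log2 values (each value minus the mean of its gene over the 7 libraries) also overlapped between the groups. It was 0.12, 0.08, 0.05 and 0.13 for WT replicates 1 to 4 and -0.17, -0.33 and 0.13 for C2-/- replicates 1 to 3. C2-/- replicates 1 and 2 lay below all WT libraries, and replicate 3 lay at the level of the highest. For the large subunit the group means were 0.05 ± 0.05 in WT and -0.07 ± 0.14 in C2-/-, and for the small subunit 0.15 ± 0.04 and -0.20 ± 0.36 (SD, n = 4 and 3). After the GC correction the mean over all 77 genes was -0.07 ± 0.10 in WT and 0.09 ± 0.23 in C2-/- (SD, n = 4 and 3).

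**Figure D1:**
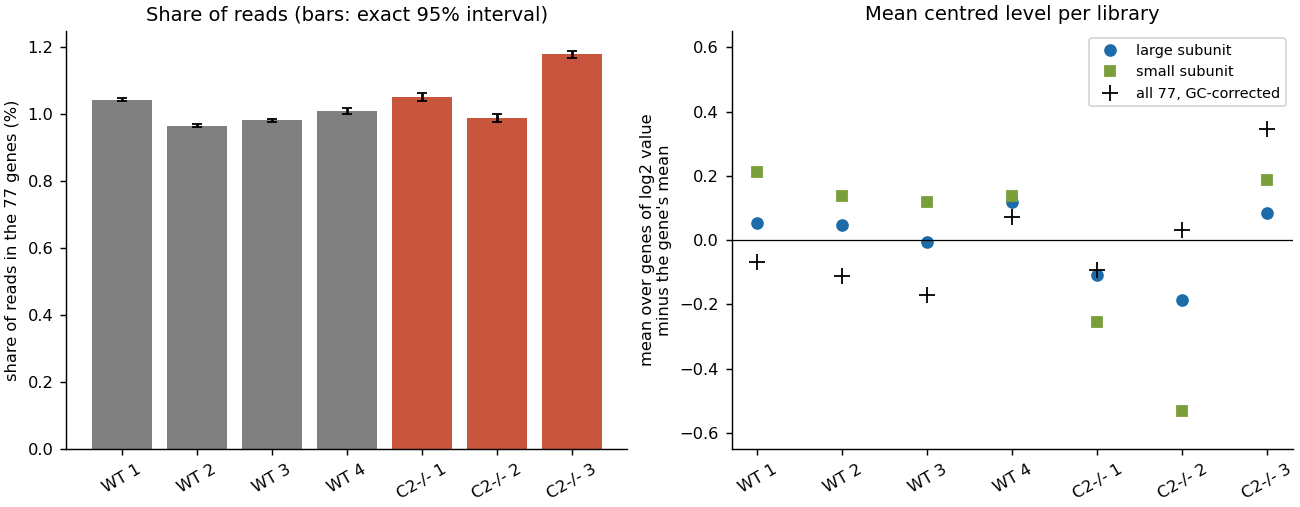
Left, the share of reads in the 77 ribosomal protein genes in each library (%), with exact 95% intervals for counting error. Right, log2 values centred on each gene and averaged over genes, by library, for the large subunit (circles), the small subunit (squares) and all 77 genes after the GC correction (crosses). The shares run from 0.966% to 1.18% and the WT and C2-/- libraries overlap.

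Single members moved apart. In C2-/-, 15 of the 77 genes were higher (19.5%, against 20.2% of all genes) and 23 were lower (29.9%, against 25.0% of all genes), and 39 were not past the threshold. The share past the threshold was thus 49.4%, near the 45.2% of all genes. The median log2 change was -0.30 over the members and -0.14 over all genes, with a range from -3.19 to 3.24. In 26 members every C2-/- library lay below every WT library and in 14 every one lay above, compared with 26.7% and 22.6% of all genes. The large subunit had 10 higher and 14 lower of 45 genes (median -0.07), and the small subunit 5 higher and 9 lower of 32 (median -0.32). After the GC correction the large subunit had 14 higher and 10 lower (median 0.25) and the small subunit 6 higher and 5 lower (median 0.00).

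The GC correction changed these counts. It gave 20 of the 77 members as higher, against 11.9% of all genes, and 15 of the 77 as lower, against 8.25% of all genes. Both shares were above those of all genes. The median was 0.20 over the members and 0.01 over all genes. Of the 15 genes higher without the correction 11 remained so, and of the 23 lower 13 remained so, whereas *Rpl13* was lower without it (-0.60) and higher with it (0.72). A correction for GC content and length together gave 12 higher and 20 lower, with a median of -0.04. The same direction in all 3 fits was reached by 7 rising genes (*Rpl39*, *Rps27l*, *Rpl21*, *Rpl38*, *Rpl22*, *Rpl27* and *Rps12*) and 13 falling genes (*Rps14*, *Rpl18*, *Rpl8*, *Rpl3*, *Rpsa*, *Rpl6*, *Rps16*, *Rpl35a*, *Rplp0*, *Rpl9*, *Rpl7l1*, *Rps3* and *Rps23*).

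**Figure D2:**
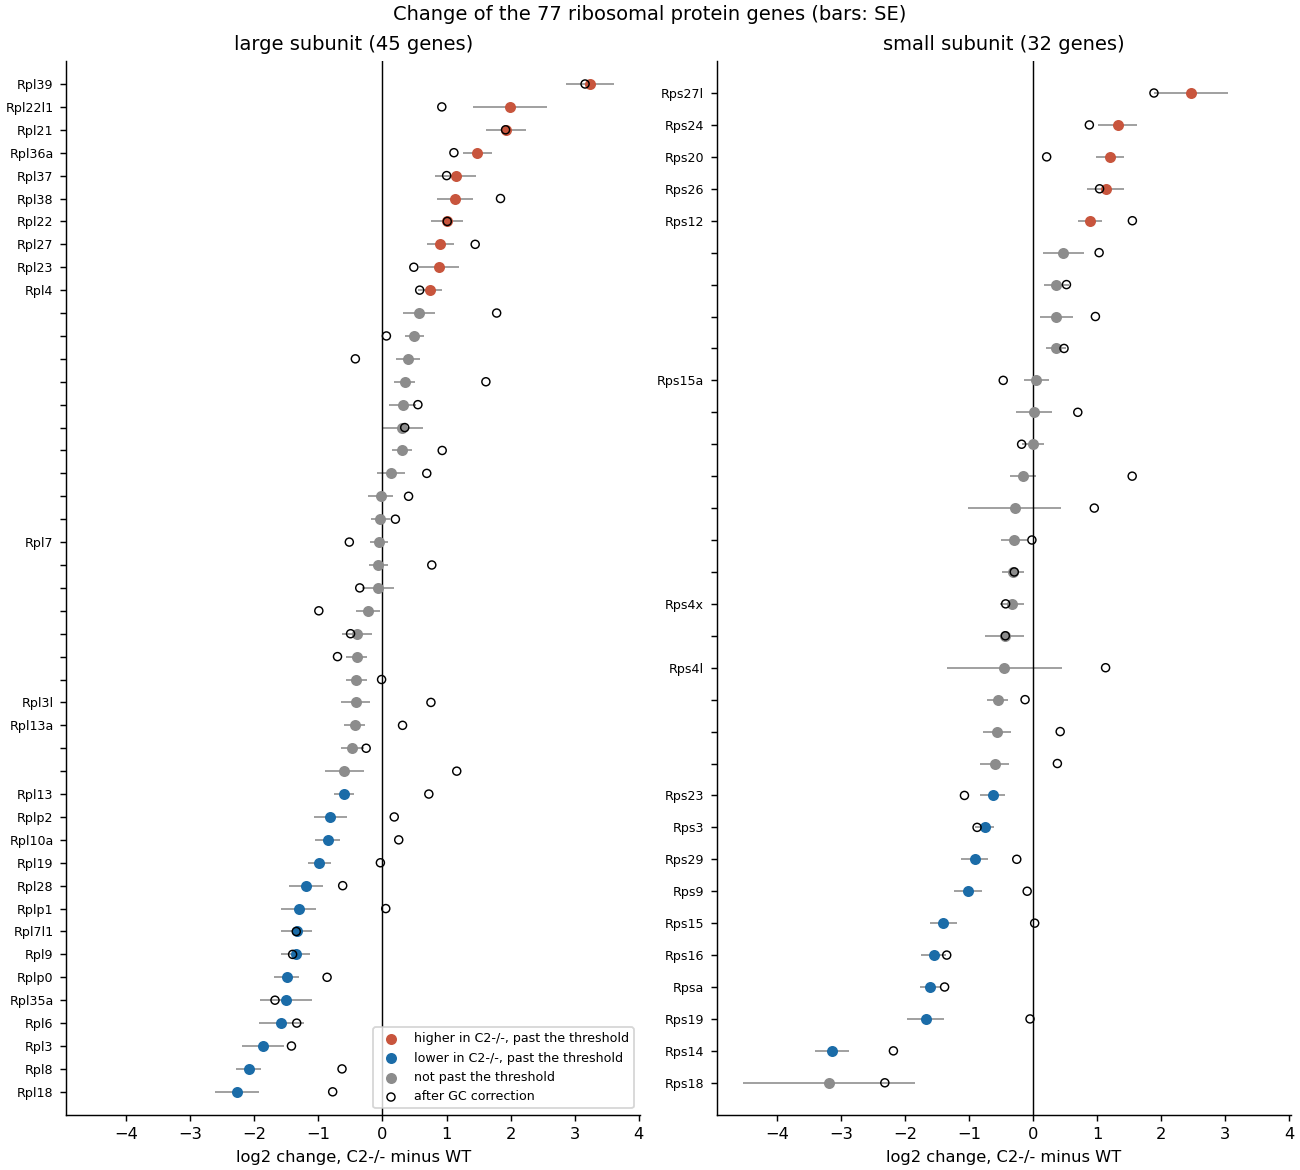
Log2 change (C2-/- minus WT) of each ribosomal protein gene with its SE from limma, ranked within the large subunit (left) and the small subunit (right). Genes past the threshold or named by rule are labelled, filled points are coloured by the call and open circles give the change after the GC correction. Changes run from -3.19 (*Rps18*) to 3.24 (*Rpl39*), and the open circles of many falling genes lie nearer to 0.

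Across the 77 members, Spearman's rho between the log2 change and the GC content of the transcript was -0.47, against -0.69 across 12175 genes. The points share the same 7 libraries, so these values are descriptions. Among the 39 members at or under the median GC content of the members (50.9%), 12 rose and 8 fell, and among the 38 above it 3 rose and 15 fell. By the same division, 34.7% of all genes at or under this GC content rose and 5.58% fell, and 4.29% of those above it rose and 46.4% fell. The GC content of the members (40.6% to 60.8%, median 50.9%) was close to that of all genes (median 50.5%), while their transcripts were shorter, with a median of 851 against 2920 bases. With length, rho was -0.04 across the members and 0.11 across all genes. After the GC correction it was -0.28 across the members and -0.07 across all genes.

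**Figure D3:**
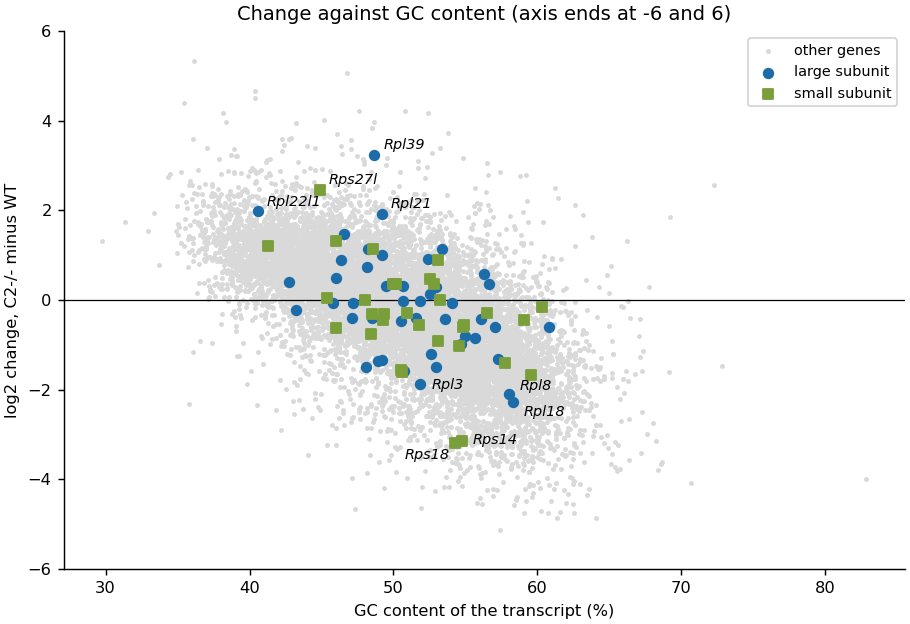
Log2 change (C2-/- minus WT) against the GC content of the annotated transcript in percent, for large-subunit genes (circles), small-subunit genes (squares) and the other genes (grey). The vertical axis does not reach *Mybpc2*. Members of high GC content lie mostly below 0 (median -0.56 above the median GC content), whereas those of lower GC content lie to both sides.

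The largest rise was in *Rpl39*, whose small basic protein lines the peptide exit tunnel (chrX:37082520-37085402, 3 exons). Its log2 values were 4.70, 5.03, 4.46 and 6.16 in WT replicates 1 to 4 and 8.10, 8.05 and 8.83 in C2-/-. The groups did not overlap, and WT replicate 4 was the highest WT library. This 9.47-fold rise (3.24 on the log2 scale, SE 0.37) had a limma adjusted p of 0.000342, and it was 3.16 after the GC correction and 2.17 relative to WT replicate 4 alone.

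*Rps27l*, a paralog of *Rps27* known as a p53 target (chr9:66946086-66949516), had values of 5.22, 5.47, 5.07 and 7.87 in WT and 7.99, 8.43 and 8.69 in C2-/-. WT replicate 4 lay next to the C2-/- libraries and far above the other WT libraries. The rise was 2.46 on the log2 scale (SE 0.58, limma adjusted p = 0.00702), whereas the difference from WT replicate 4 was 0.50. After the GC correction the change was 1.89. *Rps27* was not analysed here.

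*Rpl22l1* is the paralog of *Rpl22*, an RNA-binding protein of the large subunit that cells can do without. It lies on chromosome 3 (28805436 to 28807424) and had values of 4.28, 4.37, 4.28 and 6.93 in WT and 6.59, 6.96 and 7.31 in C2-/-. WT replicate 4 fell inside the C2-/- range. The log2 change of 1.99 (SE 0.58, limma adjusted p = 0.0186) was 0.02 relative to WT replicate 4, and it was not past the threshold after the GC correction (0.93), without C2-/- replicate 2 (1.98) or without C2-/- replicate 3 (1.81). *Rpl22* itself, at 6.54, 6.60, 6.45 and 7.32 in WT and 7.53, 7.50 and 8.18 in C2-/-, rose by 1.01 (SE 0.25, limma adjusted p = 0.00928) and by 1.01 after the GC correction.

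*Rpl21* (chr5:146832890-146837032), a large-subunit protein, had values of 5.69, 6.01, 5.80 and 6.87 in WT and 7.55, 7.92 and 8.58 in C2-/-. The groups did not overlap. The rise on the log2 scale was 1.93 (SE 0.31, limma adjusted p = 0.00138), or 1.92 after the GC correction and 1.15 relative to WT replicate 4. *Rpl36a* (chrX:134585654-134588062) stood at 4.99, 5.01, 4.82 and 4.44 in WT and 6.01, 6.27 and 6.61 in C2-/-. Here WT replicate 4 was the lowest library. The rise on the log2 scale was 1.48 (SE 0.22, limma adjusted p = 0.00095), or 1.86 relative to WT replicate 4. It was 1.12 after the GC correction and not past the threshold after the correction for GC content and length.

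**Figure D4:**
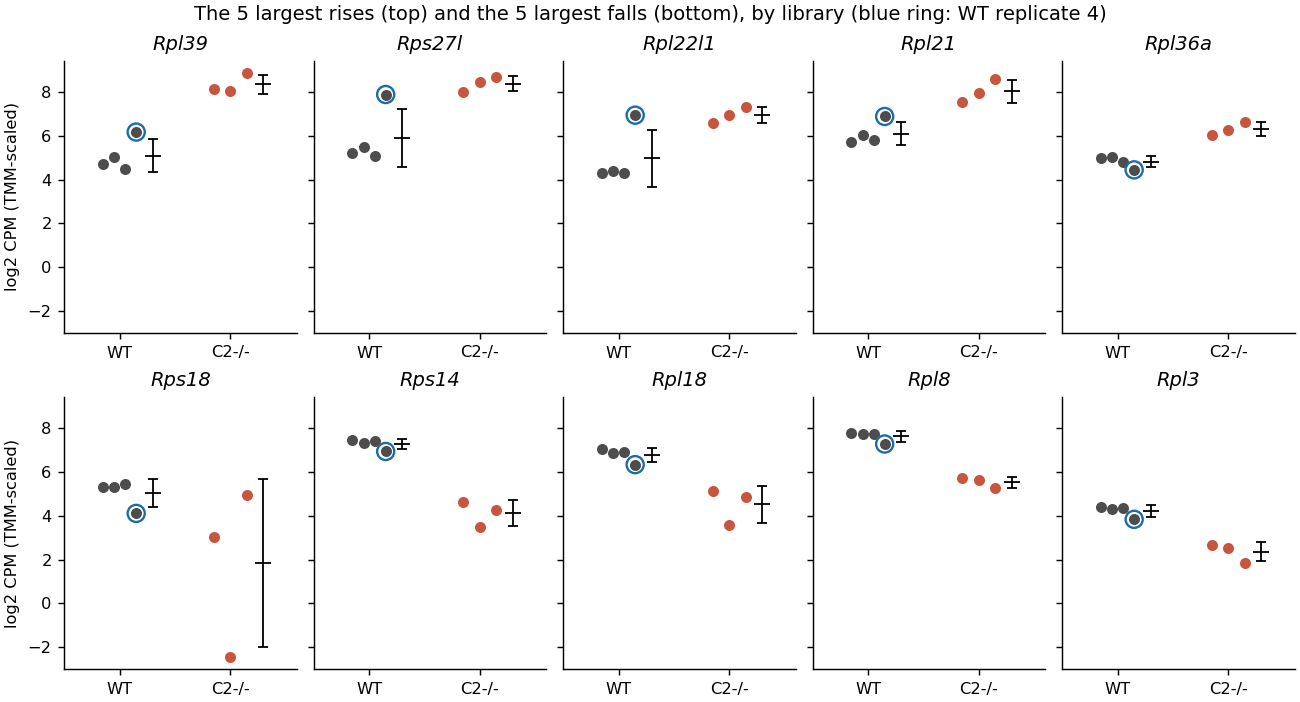
Log2 CPM in each library for the ribosomal protein genes with the 5 largest rises (top) and the 5 largest falls (bottom), with the mean and SD of each group beside the points. The blue ring marks WT replicate 4, which lies with the C2-/- libraries for *Rps27l* and *Rpl22l1* and with the other WT libraries for *Rps14* and *Rpl36a*.

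Apart from *Rpl4*, the other rising members were chosen for naming after their values were seen. In the large subunit they were *Rpl37* (1.14), *Rpl38* (1.13), *Rpl27* (0.90), *Rpl23* (0.88) and *Rpl4* (0.74), the last a protein that reaches into the exit tunnel. In the small subunit they were *Rps24* (1.32), *Rps20* (1.20), *Rps26* (1.13), at the exit side of the mRNA channel, and *Rps12* (0.89). *Rpl22l1*, *Rps20*, *Rpl23* and *Rpl4* were not past the threshold after the GC correction. WT replicate 4 reached the C2-/- range in 4 of the 15 rising members, namely *Rpl22l1*, *Rpl23*, *Rpl37* and *Rps26*, and in 9 of 15 it was closer to the C2-/- mean than to that of WT replicates 1 to 3, compared with 35 of all 77 members and 38.1% of all genes. The median change of the 15 was 1.39 relative to WT replicates 1 to 3 and 0.41 relative to WT replicate 4. *Rps26* (0.98) and *Rpl37* (1.01) were not past the threshold without C2-/- replicate 3, and *Rpl23* was not past it in any fit that left out a library except that without WT replicate 4 (0.77 to 1.21 over all 7).

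The lowest fitted change was that of *Rps18* (chr17:33951999-33956001), a small-subunit head protein, but it did not pass the test and its size depended on 1 library. Its values were 5.32, 5.29, 5.44 and 4.10 in WT and 3.02, -2.42 and 4.94 in C2-/-, which correspond to 611, 584, 667 and 75 reads and to 23, 0 and 148 reads. The C2-/- libraries were spread widely and replicate 3 lay within the WT range. The fitted change of -3.19 (log2, SE 1.34) had a limma adjusted p of 0.0734, and it was -2.32 after the GC correction. Without C2-/- replicate 2, the library with 0 reads, it was -1.06 (limma adjusted p = 0.153), and without C2-/- replicate 3 it was -4.74 (limma adjusted p = 0.0194) and past the threshold. It was also past the threshold with voom on the recovered reads (-2.88, limma adjusted p = 0.0461), with library weights (-2.62, limma adjusted p = 0.0123) and with a replicate block (-3.50, limma adjusted p = 0.0144). Of the 50-base stretches of its transcript, 86.7% also occur in transcripts of 13 other genes, so the assignment of its reads is uncertain.

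*Rps14*, a small-subunit platform protein whose human counterpart is lost in a form of myelodysplastic syndrome, fell most among the genes past the threshold. It lies on chromosome 18, and its values were 7.44, 7.29, 7.38 and 6.92 in WT and 4.62, 3.47 and 4.26 in C2-/-. All C2-/- libraries lay well below all WT libraries. The gene was 8.83-fold lower (change -3.14 with SE 0.27 on the log2 scale, limma adjusted p = 0.000185), or -2.18 after the GC correction and -2.81 relative to WT replicate 4.

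The other 3 of the 5 lowest fitted changes were in proteins of the large subunit. *Rpl18* (chr7:45715457-45720836) had values of 7.03, 6.87, 6.88 and 6.32 in WT and 5.10, 3.56 and 4.86 in C2-/- (change -2.27 with SE 0.35 on the log2 scale, limma adjusted p = 0.00101), and the change was -0.78 after the GC correction. *Rpl8* (chr15:76904078-76906314), which lies near the peptidyl transferase centre, had values of 7.78, 7.70, 7.70 and 7.26 in WT and 5.71, 5.61 and 5.24 in C2-/-. Its log2 change of -2.09 (SE 0.19, limma adjusted p = 0.000216) was -0.63 after the GC correction. In both genes the groups did not overlap and WT replicate 4 was the lowest WT library.

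*Rpl3* also reaches the peptidyl transferase centre, and *Rpl3l* takes its place in ribosomes of adult striated muscle. *Rpl3* (chr15:80077791-80091868) had values of 4.38, 4.31, 4.36 and 3.83 in WT and 2.67, 2.54 and 1.86 in C2-/-. These stood for 296 to 318 reads in each deep WT library, 62 reads in WT replicate 4 and 15 to 18 reads in each C2-/- library. The fall of *Rpl3* had a size of -1.87 on the log2 scale (SE 0.32, limma adjusted p = 0.00174), or -1.42 after the GC correction. *Rpl3l* (chr17:24727820-24736143) had values of 8.75, 8.76, 8.83 and 8.36 in WT and 8.05, 7.90 and 8.82 in C2-/-, where replicate 3 lay within the WT range. Its log2 change of -0.42 (SE 0.23, limma adjusted p = 0.152) was not past the threshold. The change became -0.70 without C2-/- replicate 3 and -0.68 with quantile normalization, both past the threshold. It turned to 0.76 (past the threshold) after the GC correction. Per kb of transcript, the log2 level of *Rpl3l* in WT was 8.22 and that of *Rpl3* was 3.79. *Rpl3* shares 85.6% of its 50-base stretches with 26 other genes and *Rpl3l* shares 0.00%, so the assignment of reads to *Rpl3* is uncertain.

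The remaining paralogs differed among themselves. *Rpl7l1*, a large-subunit assembly factor related to *Rpl7*, had values of 5.18, 5.17, 5.23 and 5.19 in WT and 3.44, 4.27 and 3.85 in C2-/- (change -1.34 with SE 0.24 on the log2 scale, limma adjusted p = 0.00204). All WT libraries lay above all C2-/- libraries, WT replicate 4 sat with the other WT libraries, and the change was -1.35 after the GC correction. *Rpl7* stood at 7.66 to 7.78 in WT and 7.62 to 7.75 in C2-/- (change -0.06 with SE 0.14, limma adjusted p = 0.751). Its change was -0.52 and not past the threshold after the GC correction, and -0.71 and past it after the correction for GC content and length. *Rps4x* (7.40 to 7.71 in WT, 7.0 to 7.67 in C2-/-) had a log2 change of -0.32 (limma adjusted p = 0.177), which was -0.43 after the GC correction and -0.66, past the threshold, with length corrected as well. *Rps4l* had 1 to 17 reads in WT and 0 to 7 in C2-/-, and its log2 change was -0.45 (limma adjusted p = 0.70). *Rpl10l* and *Rpl39l* were not analysed here.

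The stalk proteins *Rplp0*, *Rplp1* and *Rplp2*, which draw translation factors with GTPase activity to the ribosome, all fell without the GC correction. *Rplp0* had values of 9.20, 8.95, 9.18 and 8.48 in WT and 7.66, 7.34 and 7.36 in C2-/- (change -1.5 with SE 0.20 on the log2 scale, limma adjusted p = 0.000588). *Rplp1* had values of 7.17, 7.33, 7.20 and 6.49 in WT and 5.21, 5.77 and 6.24 in C2-/- (change -1.31 with SE 0.27, limma adjusted p = 0.00414). *Rplp2* had values of 6.31, 6.30, 6.24 and 6.05 in WT and 5.64, 4.74 and 5.86 in C2-/- (change -0.81 with SE 0.26, limma adjusted p = 0.0259).

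The C2-/- libraries lay below every WT library in all 3 stalk genes. After the GC correction the change of *Rplp0* was -0.86 and past the threshold, whereas those of *Rplp1* (0.05) and *Rplp2* (0.18) turned in sign and were not. *Rplp2* was also not past the threshold without WT replicate 1 (-0.78), 2 (-0.79) or 3 (-0.81) or without C2-/- replicate 2 (-0.48).

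Apart from *Rps15*, the other falling members were likewise named after their values were seen. In the small subunit they were *Rps19* (-1.68), the gene most often mutated in human Diamond-Blackfan anaemia, *Rpsa* (-1.61), also known as a laminin receptor, *Rps16* (-1.55), *Rps15* (-1.40), *Rps9* (-1.02), *Rps29* (-0.91), *Rps3* (-0.76), at the mRNA entry, and *Rps23* (-0.63), at the decoding centre. In the large subunit they were *Rpl6* (-1.58), *Rpl35a* (-1.51), *Rpl9* (-1.36), *Rpl28* (-1.20), *Rpl19* (-0.99), *Rpl10a* (-0.86) and *Rpl13* (-0.60). With the GC correction *Rplp1*, *Rplp2*, *Rps9*, *Rps15*, *Rps19*, *Rps29*, *Rpl10a*, *Rpl19* and *Rpl28* were not past the threshold. In all 23 falling members the C2-/- libraries lay below all WT libraries and the C2-/- mean lay below WT replicate 4, which was closer to the C2-/- mean than to WT replicates 1 to 3 in 4 of the 23. The median change of the 23 was -1.5 relative to WT replicates 1 to 3 and -0.99 relative to WT replicate 4. *Rps23* was not past the threshold without WT replicate 1 (-0.59) or 2 (-0.56) or C2-/- replicate 1 (-0.58) or 3 (-0.53), and *Rpl13* without WT replicate 1 (-0.56) or C2-/- replicate 2 (-0.49).

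**Figure D5:**
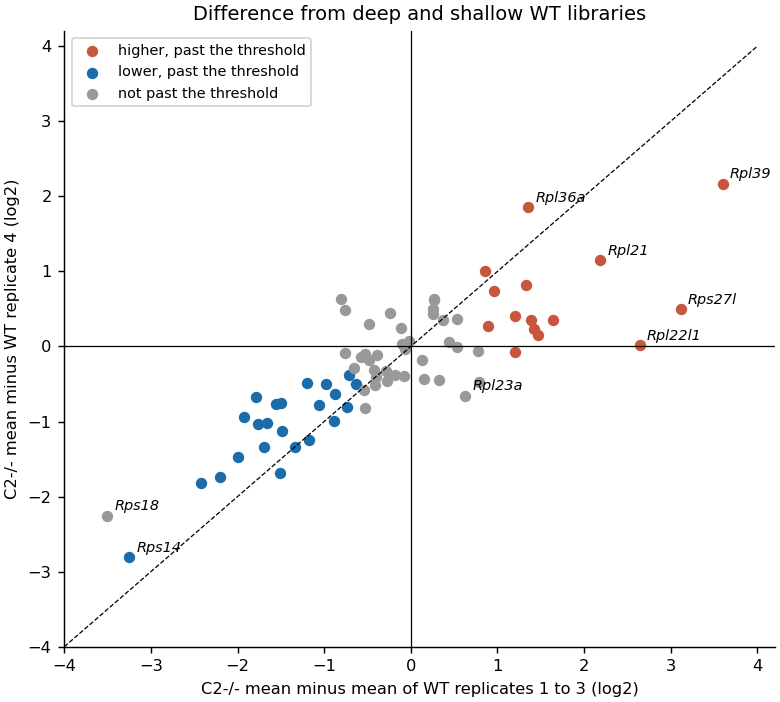
For each ribosomal protein gene, the C2-/- mean minus the mean of the deep WT replicates 1 to 3 (horizontal) and minus the shallow WT replicate 4 (vertical), on the log2 scale, coloured by the call. The dashed line marks equal differences. Falling genes stay below 0 on both axes, whereas *Rpl22l1* (0.02) and several other rising genes lie near 0 on the vertical axis.

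Of the 39 members not past the threshold, 21 belonged to the large and 18 to the small subunit. Among them *Rps15a* had values of 5.92 to 6.37 in WT and 5.94 to 6.54 in C2-/- (change 0.05 with SE 0.20 on the log2 scale, limma adjusted p = 0.851). A p that misses the threshold does not show that the levels were equal. With the GC correction 8 of the 39 rose and 2 fell, where 11.9% of all genes rose and 8.25% fell.

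By level per kb of transcript, *Rpl4* (8.73), *Rplp0* (8.51) and *Rps15* (8.45) were the highest members in WT on the log2 scale. *Rps4l* (-0.38), *Rps15a* (3.77, over an annotated transcript of 5179 bases) and *Rpl3* (3.79) were the lowest. In C2-/- the level of *Rpl4* was 9.47, that of *Rplp0* 7.01 and that of *Rps15* 7.05. *Rpl4* rose by 0.74 (SE 0.19, limma adjusted p = 0.0103), with values of 9.18, 9.26, 9.15 and 9.81 in WT and 10.07, 10.07 and 10.11 in C2-/-. *Rps15*, at 7.58, 7.56, 7.48 and 7.18 in WT and 6.06, 5.62 and 6.47 in C2-/-, fell by 1.40 (SE 0.21, limma adjusted p = 0.001), and its change was 0.02 after the GC correction.

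Position was examined because the disrupted gene lies on chromosome 7 (chr7:44501699-44524656). *Rpl13a* and *Rpl18* lie within 5 Mb of it, at 0.601 and 1.19 Mb. *Rpl13a*, at 7.54 to 7.68 in WT and 6.91 to 7.40 in C2-/-, changed by -0.44 on the log2 scale (SE 0.16, limma adjusted p = 0.0445), under the fold-change minimum, and by 0.31 after the GC correction. Quantile normalization gave -0.63, past the threshold. On chromosome 17 *Rps2* and *Rpl3l* are neighbours, separated by 5890 bases. Of the 14 members on chromosome 7, 0 rose and 7 fell, or 0 and 3 after the GC correction, where 20.2% of all genes rose and 25.0% fell (11.9% and 8.25% after it). Members lay on 19 chromosomes in all, and whether those on chromosome 7 differed from the others was not tested.

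Ribosomal protein genes have many processed copies in the genome, and how the authors treated reads with several matches was not given in the sources used here. The share of 50-base stretches of a member that also occur in annotated transcripts of other genes had a median of 53.1% (0.00% to 95.1%) and was over 10% in 69 of the 77. It was over 50% in 42, with *Rpl9*, *Rpl36a*, *Rps12*, *Rpl18*, *Rpl22l1* and *Rpl6* among them. In these the assignment of reads is uncertain, as for *Rps18* and *Rpl3*. Of the 8 members at 10% or less, *Rpl22* and *Rps20* rose, *Rpl8*, *Rps3* and *Rpl7l1* fell, and 3, with *Rpl3l* and *Rps15a* among them, were not past the threshold (20.2% of all genes rose and 25.0% fell). The median share was 31.3% among the rising, 47.4% among the falling and 62.2% among the other members.

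A small nucleolar RNA gene lay inside 29 of the 77 members (37.7%) on the same strand, compared with 1.82% of the 12175 annotated genes. Of these 29 hosts 7 rose and 7 fell (median -0.07), near the 20.2% and 25.0% of all genes, and of the 222 hosts among all genes 54 rose and 39 fell (median 0.19).

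The other parts of the translation apparatus served as a comparison. Among 77 mitochondrial ribosomal protein genes, 24 were higher and 18 lower (median 0.02), and among 63 translation factor genes 16 were higher and 20 lower (median -0.22). Their shares past the threshold were 54.5% and 57.1%, against 45.2% of all genes. After the GC correction the counts were 18 higher and 6 lower for the mitochondrial ribosome and 4 higher and 12 lower for the translation factors, where 11.9% of all genes were higher and 8.25% lower. The difference from the cytosolic ribosomal protein genes was not tested.

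Among 7 ribosomal proteins and ribosome-bound proteins outside the symbol rule, 1 rose and 3 fell (median -1.12), or 1 and 1 after the GC correction (median 0.32), where 20.2% of all genes rose and 25.0% fell (11.9% and 8.25% after it). *Rpl36al*, a close relative of *Rpl36a*, rose by 1.59 (SE 0.27, limma adjusted p = 0.00176) and by 1.74 after the GC correction. *Fau*, which encodes a ribosomal protein fused to a ubiquitin-like domain, fell by 1.39 (limma adjusted p = 0.00148), and its change was 0.32 and not past the threshold after the GC correction. *Gnb2l1*, the older symbol of the scaffold gene *Rack1*, fell by 1.12 (limma adjusted p = 0.000901) and by 0.87 after the GC correction.

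Of 38 ribosome assembly factors 36 were measured, with 8 higher and 10 lower (median -0.13), and after the GC correction 2 were higher and 1 lower. *Npm1*, an abundant nucleolar chaperone, rose by 1.21 (limma adjusted p = 0.00215), or 0.36 and not past the threshold after the GC correction. Of 12 genes of RNA polymerase I and its factors, which make ribosomal RNA, 1 rose and 5 fell (median -0.92), and 0 rose and 3 fell after the correction. Both lists stand against 20.2% of all genes higher and 25.0% lower, or 11.9% and 8.25% after the correction. *Polr1a*, the largest subunit, had values of 5.69 to 5.73 in WT and 4.09, 3.96 and 4.65 in C2-/-, with WT replicate 4 at 5.70. It fell by 1.47 (SE 0.22, limma adjusted p = 0.000895) and by 1.17 after the GC correction, and *Polr1b* fell by 1.57 (limma adjusted p = 0.00257) and by 1.26 after it.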

How the data were processed

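Poly(A) RNA of TA muscle was sequenced as DNA nanoballs. Per the labels and the study's methods, the authors aligned reads with HISAT to GRCm38.p6, counted them with featureCounts 1.5.2 and scaled them by edgeR's TMM. The authors deposited log2 values of 12239 genes in 7 libraries. A second deposited table held their own comparison and was not used. Filter, multiply mapped reads and strand were not given in the sources used here. Each deposited log2 value equals the log2 of a whole number of reads plus 0.5, relative to the TMM-scaled library total, and all values (100%) came out whole within 0.01 reads. With 0 reads a gene stands at -4.94 to -4.90 in WT replicates 1 to 3 but at -3.27 to -2.42 in C2-/-, so falls to few reads are understated. Totals and intervals cover counting error only.

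Limma 3.58.1 in R 4.3.3 (lmFit, eBayes with trend) was fitted to the log2 values of all genes with genotype as the only term and two-sided p-values adjusted by the Benjamini-Hochberg method over 12239 genes. The fit was tested on simulated data. Replicates were taken as separate mice, as the study counts them, although the titles give replicate numbers only. The GC correction fitted a natural spline with 5 degrees of freedom per library to 12175 genes (99.5% matched to GENCODE vM21 of GRCm38, 357 by an older symbol, 1 transcript per gene). Alternatives were voom on the recovered reads, library weights, no trend, 2 added reads, quantile normalization, median centring, a mean log2 minimum of 3, other thresholds, a replicate block and leaving out each library.

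Members and lists were chosen with earlier results of these data known. Genes were named by rule (5 largest rises and falls, paralogs with a parent, stalk proteins, members within 5 Mb of *Mybpc2*, 3 highest and lowest levels per kb). Other genes past the threshold and list genes were named after their values were seen, and a few genes are not reported here. Promoters came from RefSeq on GRCm38.p6. Positions are on GRCm38.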

Additional observations from a re-analysis of the deposited data

Results flagged for a closer look

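For each gene named by rule, the share of reads and the mean level, the WT library at either end was compared with its neighbour, and the gap between them as a part of the WT range was set against the 95% critical value that Dixon's test has for 4 samples. With 3 libraries, the C2-/- group was not tested this way. The critical value was passed in 6 of 26 such sets, against about 1.3 by chance (1 in 20), and all 6 times by WT replicate 4. The values of a library are not independent of each other.

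In *Rps27l* WT replicate 4 stood at 7.873, far from WT replicates 1 to 3 (5.07 to 5.47), and in *Rpl22l1* at 6.934 against 4.28 to 4.37. In *Rpl4* it stood at 9.809 against 9.15 to 9.26. These 3 genes rose in C2-/-, and WT replicate 4 lay on the side of the C2-/- libraries. It also lay on that side in *Rps18* (4.103 against 5.29 to 5.44), *Rpl8* (7.258 against 7.70 to 7.78) and *Rpl3* (3.83 against 4.31 to 4.38), whose C2-/- means were lower. The *Mybpc2* level of WT replicate 4 (12.51) was that of a WT library. Its 4683853 reads were fewer than those of 1 C2-/- library and more than those of 2, and its variance by GC content (9.67%) lay between those of WT replicates 1 to 3 and C2-/-. The part of depth and GC content in these 6 values was not tested.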

How the results depend on the processing

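Of the genes past the threshold, 6 of 15 rising (*Rpl39*, *Rps27l*, *Rpl21*, *Rpl22*, *Rpl27* and *Rps12*) and 11 of 23 falling (*Rps14*, *Rpl18*, *Rpl8*, *Rpl3*, *Rpsa*, *Rpl6*, *Rps16*, *Rplp0*, *Rpl9*, *Rpl7l1* and *Rps3*) were past it under every alternative run. Leaving out 1 library gave 11 to 18 higher and 20 to 29 lower members, a median change of -0.31 to -0.18 and a difference in the share of reads in the ribosomal protein genes of 0.0209 to 0.115 percentage points. An adjusted p under 0.01 gave 9 higher members. The GC correction gave 15 lower members and a median of 0.20, the GC and length correction a median of -0.04 and median centring one of -0.14. A fit with GC correction and without WT replicate 4, added after seeing the data, gave 24 higher members and a median of 0.21.

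Replicate numbers did not pair the samples (correlation of deviations 0.053, -0.064 and -0.053 for numbers 1 to 3). With a replicate block 18 members were higher and 27 lower (median -0.29), and GC correction with the replicate block gave 27 higher members and a median of 0.21. WT replicate 4 has no C2-/- partner, so the block takes it out of the contrast and log2 changes equal those without it.

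Signs turned as follows, and the cause was not tested. The GC correction gave 0.76 for *Rpl3l*, 1.13 for *Rps4l*, 0.05 for *Rplp1*, 0.18 for *Rplp2*, 0.31 for *Rpl13a*, -0.47 for *Rps15a*, 0.02 for *Rps15*, 0.25 for *Rpl10a* and 0.72 for *Rpl13*. With the replicate block, or without WT replicate 4, the GC-corrected values were 0.74 for *Rpl3l*, 0.89 for *Rps4l*, 0.21 for *Rplp2*, 0.40 for *Rpl13a*, -0.43 for *Rps15a*, 0.05 for *Rps15*, 0.22 for *Rpl10a* and 0.80 for *Rpl13*. The GC and length correction gave 0.64 for *Rpl3l*, 0.91 for *Rps4l*, 0.11 for *Rpl13a*, -0.42 for *Rps15a* and 0.45 for *Rpl13*. Quantile normalization gave 1.02 for *Rps4l* and -0.08 for *Rps15a*, and median centring gave 0.10 for *Rpl7*. Over the fits without 1 library *Rps4l* ran from -1.22 to 0.30 and *Rps15a* from -0.12 to 0.18.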

Other observations

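Some rows of ribosomal protein retrocopies and pseudogenes outside the symbol rule also differed between the groups, where 20.2% of all genes rose and 25.0% fell. The *Rpl37* retrocopy *Rpl37rt* had log2 values of 3.21, 2.84, 2.64 and 6.11 in WT and 5.51, 6.78 and 6.97 in C2-/-, a rise of 2.72 on the log2 scale (SE 0.75, limma adjusted p = 0.0143) and of 3.22 after the GC correction. WT replicate 4 lay within the C2-/- range, as it did for *Rpl37* (7.32, against 7.20 to 7.75 in C2-/-). *Rps15a-ps6* had values of 1.25, 0.71, 0.84 and 2.75 in WT and 2.95, 3.51 and 4.00 in C2-/- (log2 change 2.10, limma adjusted p = 0.012), or 1.64 and not past the threshold after the correction. *Rpl14-ps1* was at 5.69 to 5.91 in WT and 4.71 to 5.00 in C2-/- (log2 change -0.90, limma adjusted p = 0.00324), or -0.35 and not past the threshold after the correction, whereas *Rpl14* had a log2 change of -0.03. *Rps19-ps3* had a log2 change of -0.57 (limma adjusted p = 0.587). These rows share sequence with their parent genes, so the assignment of reads between them is uncertain.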
